A study of Mus musculus with 4 samples.

Results

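The genes described here encode the protein side of the splicing machinery: SR proteins, hnRNPs, the SF3A, SF3B and U2AF factors, Sm and U1 proteins, Prpf proteins and Lsm proteins. They were taken by symbol from the gene count table, as every row whose symbol begins with Srsf, Sf3a, Sf3b, Hnrnp, Snrp, Prpf or Lsm followed by the number or letter of the family, or with U2af, leaving out rows named as pseudogenes with the suffix ps. The rule used no measured value, and it gave 80 of the 12067 genes in the table. All 80 passed the filter on low counts, which removed 0 genes. GENCODE gave 79 of the 80 as protein coding; the remaining one, Snrpert, is annotated as a processed pseudogene. Its 279 bases were 98.9% identical to Snrpe, so the part of its counts that came from Snrpe cannot be told apart. Srsf8, Srsf12 and Snrpn have no row in the table and were not analysed here.

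The samples were 4 Quant-seq libraries, which count 1 tag near the 3′ end of each polyadenylated transcript, from donor-derived KL cells (Lin- cKIT+ Sca-1- CD45.2+ myeloid progenitors) sorted from the bone marrow of mice. The 2 BcorΔE9-10 libraries came from male donors with floxed Bcor and the tamoxifen-activated HSC-SCL-Cre-ERT transgene, in which Bcor exons 9 and 10 are cut out and the reading frame shifts. The 2 BcorWT libraries came from donors labelled with the same floxed allele, with no Cre named in their genotype. Donors of both genotypes received tamoxifen at 3 to 6 months of age. Their marrow was grown in sub-lethally irradiated congenic Ptprca recipients of the CD45.1 type, so that every measured cell had passed through transplantation. The time after transplant was taken as 20 weeks for all 4 libraries. The comparison asks how deletion of Bcor exons 9 and 10 changed gene expression in transplanted myeloid progenitors. In the study, the deleted allele gave a truncated Bcor protein at a low level, so that more than the C-terminus may be lost. The transgene is active in stem and early progenitor cells, so that the KL cells carry the deletion by descent, and the share of sorted cells that carried it cannot be read from these libraries. The labels do not say whether each library is 1 recipient, so that p-values measure the spread between these libraries, which may be partly technical.

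Pre-mRNA splicing is carried out by the spliceosome, which is built anew on each intron from small nuclear ribonucleoproteins. In the U1, U2, U4 and U5 particles a ring of Sm proteins is assembled around the RNA, while U6 carries a ring of Lsm proteins; SF3B and U2AF recognise the branch point and the 3′ splice site, and the tri-snRNP Prpf proteins drive activation. SR proteins and hnRNPs bind exons and introns and bias the choice of splice site, often in opposite directions. Mutations in several of these genes, among them SF3B1, SRSF2, U2AF1 and PRPF8, recur in human myeloid neoplasms, as do mutations in BCOR.

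Bcor acts at promoters within a Polycomb complex, and the promoters of the members are therefore shown first. RefSeq promoter windows on GRCm38.p6 were at hand for 67 of the 80 members, each of 300 bases from 250 before to 50 after the annotated start, and were searched for the exact letters of 6 motifs on both strands. The ETS core CGGAAG was found in 34 of 67 windows (50.7%), the CCAAT box CCAAT in 33 (49.3%), the GC box GGGCGG in 47 (70.1%), the E-box CACGTG in 8 (11.9%), the TATA box TATAAA in 6 (8.96%) and the YY1 motif AAGATGGC in 4 (5.97%). The same letters stood in 17.2%, 37.9%, 35.9%, 7.24%, 14.2% and 2.88% of all 27025 promoter windows, and in 34.8%, 38.9%, 65.5%, 10.7%, 6.65% and 5.40% of the 8396 windows whose gene is in the count table. The members' windows had a median GC content of 60.0%, against 52.7% over all windows. That median was not taken over the windows of genes in the count table alone, so the difference may not be particular to the members. ETS and CCAAT letters stood in a larger share of members than of other genes with counts, with no test made, and the E-box, YY1, GC-box and TATA shares lay near those of such genes. The 4 windows below belong to the 2 members with the lowest p and to the 2 with the highest fold change; capitals mark ETS, CCAAT and YY1 matches, on either strand, and the GC box is left in lower case.
Lsm7 (chr10:80855160-80855459, minus strand): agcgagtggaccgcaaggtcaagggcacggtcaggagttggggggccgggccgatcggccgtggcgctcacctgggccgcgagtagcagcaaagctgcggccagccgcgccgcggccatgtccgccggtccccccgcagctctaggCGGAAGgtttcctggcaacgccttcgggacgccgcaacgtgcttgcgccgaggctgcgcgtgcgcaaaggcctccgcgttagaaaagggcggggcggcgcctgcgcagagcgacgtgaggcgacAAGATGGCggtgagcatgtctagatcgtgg
U2af1l4 (chr7:30563090-30563389, plus strand): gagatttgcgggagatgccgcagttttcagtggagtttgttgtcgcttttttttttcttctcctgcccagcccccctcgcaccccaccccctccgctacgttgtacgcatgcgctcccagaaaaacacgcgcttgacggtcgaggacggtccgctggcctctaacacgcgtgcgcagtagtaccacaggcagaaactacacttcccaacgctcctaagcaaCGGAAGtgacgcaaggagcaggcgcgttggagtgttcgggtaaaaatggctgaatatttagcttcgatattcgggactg
Lsm8 (chr6:18848385-18848684, plus strand): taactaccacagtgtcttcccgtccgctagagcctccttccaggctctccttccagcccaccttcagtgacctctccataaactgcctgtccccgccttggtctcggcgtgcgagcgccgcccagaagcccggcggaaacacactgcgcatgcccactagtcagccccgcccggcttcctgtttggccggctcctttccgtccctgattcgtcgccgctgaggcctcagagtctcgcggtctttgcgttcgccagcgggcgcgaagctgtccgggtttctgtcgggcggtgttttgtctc
Prpf38a (chr4:108579287-108579586, minus strand): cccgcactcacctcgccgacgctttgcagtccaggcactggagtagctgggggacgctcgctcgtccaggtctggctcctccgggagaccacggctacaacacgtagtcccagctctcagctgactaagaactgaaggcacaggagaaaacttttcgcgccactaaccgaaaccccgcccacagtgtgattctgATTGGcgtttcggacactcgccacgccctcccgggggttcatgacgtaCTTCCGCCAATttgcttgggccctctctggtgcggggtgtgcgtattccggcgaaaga
Lsm7 held 1 ETS and 1 YY1 match, U2af1l4 held 1 ETS match, Prpf38a held 2 CCAAT matches and 1 ETS match in which ETS and CCAAT adjoin, and Lsm8 held none of these letters. A match is a run of letters and no measured binding site, and the list of windows is not complete.

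The libraries held between 3825289.5 and 6253100.5 counts, of which the members took 1.33% to 1.54%. At these depths 3 counts were worth 0.489 to 0.876 CPM (counts scaled to a common library total, with TMM factors), below all members: the lowest count of a member in any library was 13, for Prpf40b. Bcor had 104 and 113 counts in BcorΔE9-10 and 58 and 79 in BcorWT; its 3′ tags lie outside the deleted exons and do not check the genotype. The BcorWT libraries had a Pearson correlation of 0.893 with each other on the log2 scale, against 0.947 between the BcorΔE9-10 libraries. The rRNA-like Gm42418 took 1.43% of the counts in BcorWT replicate 2 and 27.9% in BcorWT replicate 1. In the BcorΔE9-10 libraries it took 16.3% and 14.3%. All 10 KL markers, Kit and Mpo among them, were present, while 7 of 9 B and T cell markers had no row in the table. Of the 10 KL markers, 3 were higher and 7 lower in BcorΔE9-10. Their median log2 fold change was -0.38, and -0.13 without either BcorWT library. Their summed levels were 11074 and 8340 CPM in BcorΔE9-10 and 11239 and 11208 CPM in BcorWT. The 4 megakaryocyte markers in the table were all lower, with a median of -0.70 that was -0.18 without BcorWT replicate 2. The 9 erythroid markers in the table were all higher in BcorΔE9-10, with summed levels of 204 and 186 CPM against 78.0 and 88.1 CPM, and all 6 eosinophil, basophil and mast cell markers were lower, with 234 and 179 CPM against 422 and 449 CPM. Of 7 monocyte and dendritic markers, 6 were lower without overlap between the groups (17.1% of all genes were). Their summed levels were 743 and 746 CPM against 918 and 1756 CPM. Summed neutrophil markers were at 63384 and 155228 CPM in BcorΔE9-10 and at 94516 and 143800 CPM in BcorWT, above the summed KL markers in every library. Of the 8 neutrophil markers, 2 were higher and 6 lower, and the groups overlapped for each. Their median log2 fold change was -0.73, and it was -0.30 without BcorΔE9-10 replicate 1 and 0.19 without BcorWT replicate 2. The part of these cell types in the values below was not tested, and in bulk libraries fewer cells of a type and less RNA per cell cannot be told apart.

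No splicing gene passed the test between the genotypes after adjustment. With edgeR's quasi-likelihood test and Benjamini-Hochberg adjustment over all genes, 0 of the 80 members had an adjusted p under 0.05, against 0.0166% of all genes tested, and the lowest adjusted p of a member was 0.945. At an unadjusted p under 0.05 there were 2 members, Lsm7 and U2af1l4, both lower in BcorΔE9-10, against 3.07% of all genes that were lower at that level. Higher members numbered 0 at that level, against 1.34% of all genes. DESeq2 also called 0 members (0.356% of all genes), as did limma-voom (0.0331%), and both gave the same 2 members at an unadjusted p under 0.05.

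In their direction the members split nearly evenly, with 46 higher and 34 lower in BcorΔE9-10. The median log2 fold change was 0.06, against -0.03 over all genes, with a range from -1.39 to 0.63, and 55 of the 80 lay within 1 SE of 0. Both BcorΔE9-10 libraries lay below both BcorWT libraries for 14 members (17.5%, against 17.1% of all genes) and above both for 12 (15.0%, against 16.8%). These shares are near those of the whole table. The summed level of all members was 14365 and 14545 CPM in BcorΔE9-10 and 14899 and 13723 CPM in BcorWT, so that the BcorΔE9-10 sums lay between those of the BcorWT libraries. Members beyond those picked by the rule for named genes are given so that each role is accounted for, after their values were seen.

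**Figure D1:**
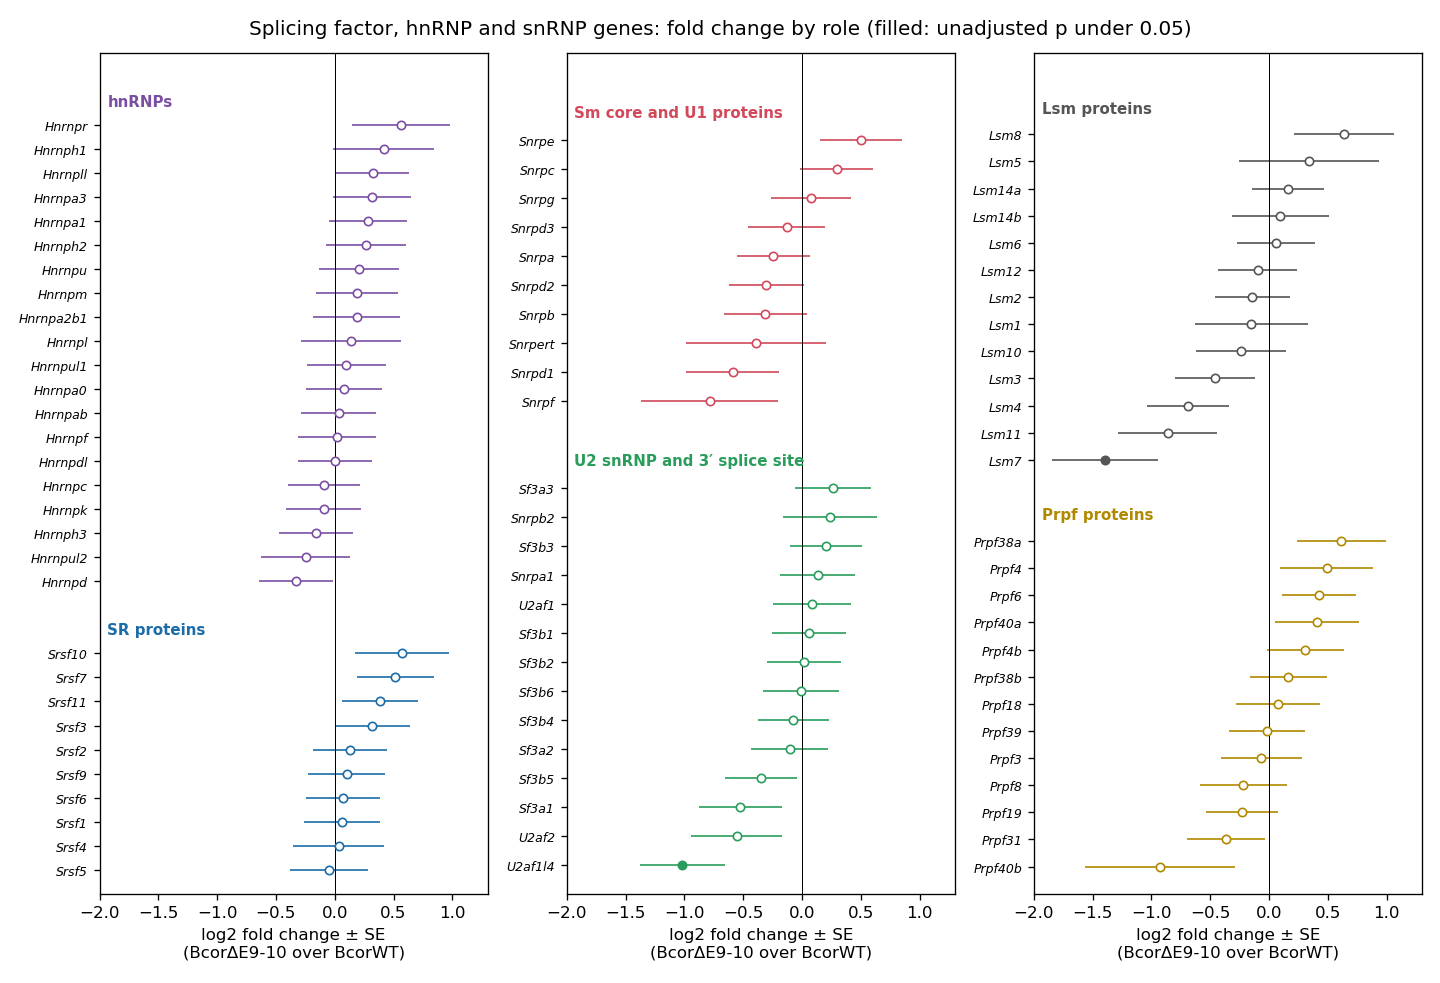
Log2 fold change of each of the 80 members (x axis, BcorΔE9-10 over BcorWT, bars show 1 SE of the edgeR fit), in 3 panels by role, with genes on the y axis. Filled points are the 2 members with an unadjusted p under 0.05, Lsm7 at -1.39 and U2af1l4 at -1.02; the bars of 55 members cross 0.

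Lsm proteins held the widest range. Of 13 members, 5 were higher and 8 lower, with a median log2 fold change of -0.14 that was -0.08 without BcorΔE9-10 replicate 1 or BcorWT replicate 1 and -0.06 with the GC correction. Of the 13, 4 were lower without overlap between the groups (Lsm7, Lsm11, Lsm4 and Lsm3) while 0 were higher without overlap (17.1% and 16.8% of all genes). Lsm2 to Lsm8 form the ring that holds the 3′ end of U6 RNA, and with Lsm1 in place of Lsm8 the ring acts in the cytoplasm in mRNA decay. Lsm7, a subunit of both rings (chr10:80852821-80855209, minus strand), had 396 and 974 counts in BcorΔE9-10 and 823 and 1962 counts in BcorWT, or 73.2, 159, 240.3 and 369 CPM. Both BcorΔE9-10 libraries were below both BcorWT libraries, and the libraries of either genotype also differed from each other. The log2 fold change was -1.39 with an SE of 0.45 and an unadjusted edgeR p of 0.0150 (adjusted p 0.945).

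Lsm7 has an identical copy in the table. Gm10146, a processed pseudogene at chr10:78393320-78393628 on the plus strand, is identical to the Lsm7 transcript over all its 309 bases, and how the counting divided reads between them is not given in the sources used here. Gm10146 had 1149 and 1054 counts in BcorΔE9-10 and 835 and 1889 in BcorWT, which was 74.4%, 52.0%, 50.4% and 49.1% of the sum of both genes in each library. The split thus differed most in BcorΔE9-10 replicate 1, the library with the lowest Lsm7 value. The sum of both genes was 1545 and 2028 counts against 1658 and 3851, or 286, 331, 484 and 724 CPM. The groups did not overlap for the sum either, and its log2 fold change was -0.97 with an SE of 0.35 (edgeR, unadjusted p 0.0254, adjusted p 0.944). BcorWT replicate 2 was the highest library for the sum.

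**Figure D2:**
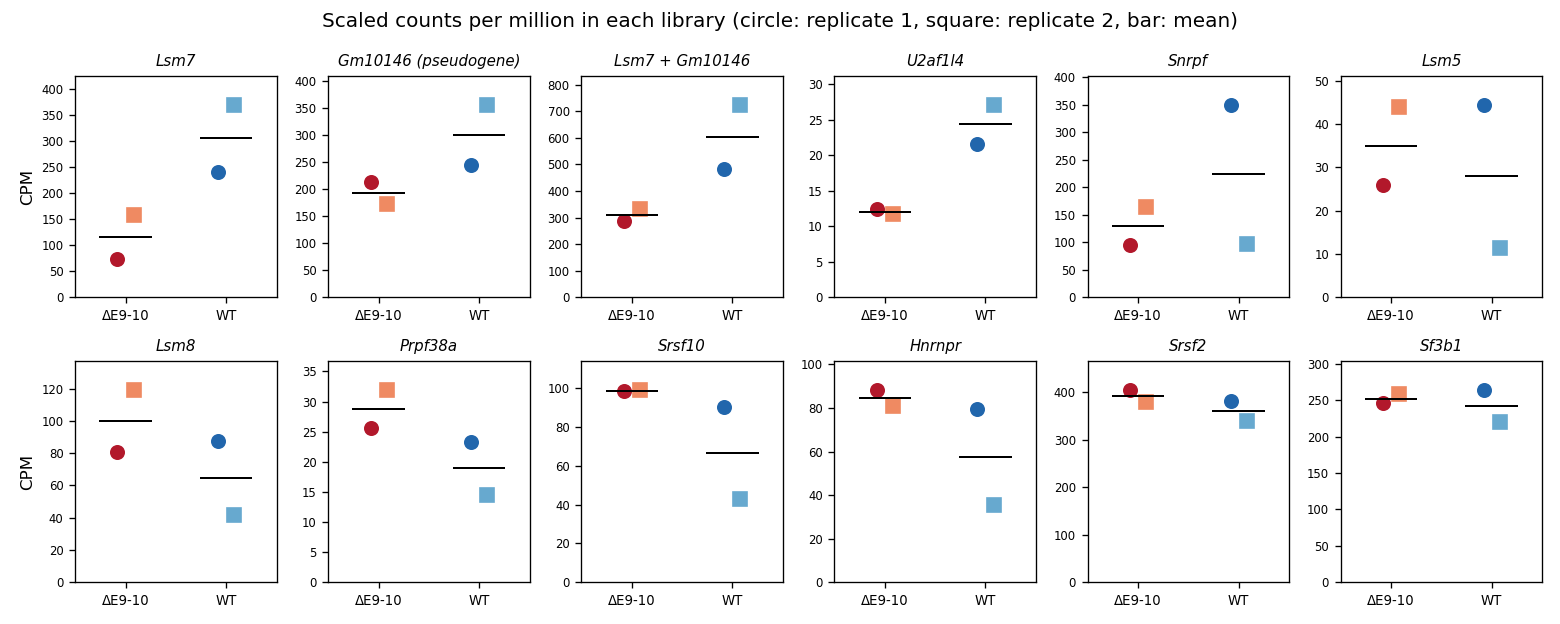
Scaled CPM (y axis, each panel from 0 on its own scale) in the 4 libraries for 10 members, for the pseudogene Gm10146 and for its sum with Lsm7; BcorΔE9-10 in reds, BcorWT in blues, circles for replicate 1, squares for replicate 2 and bars for means. Lsm7, its sum with Gm10146 and U2af1l4 were lower in both BcorΔE9-10 libraries, whereas the Snrpf, Lsm5, Srsf10 and Hnrnpr panels show that the BcorWT libraries differed most.

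The other subunits of the U6 ring had values on either side of 0. Lsm8, which marks the nuclear ring (chr6:18848579-18855751, plus strand), had a log2 fold change of 0.63 with an SE of 0.43, the highest of the members when all 4 libraries were used; it was 1.25 without BcorWT replicate 1 and 0.19 without BcorWT replicate 2, and in each of those fits at least 1 other member was higher. Its levels were 80.6 and 119 CPM in BcorΔE9-10 against 87.3 and 41.8 CPM in BcorWT, and the groups overlapped. Over the 7 ring genes from Lsm2 to Lsm8 the median was -0.14, with 3 higher and 4 lower, and it ran from -0.37 without BcorΔE9-10 replicate 1 to -0.08 without BcorWT replicate 1 (-0.09 without BcorΔE9-10 replicate 2). Lsm4 was at 51.6 and 42.5 CPM against 59.6 and 91.8 CPM, and Lsm3 at 155 and 177 CPM against 181 and 275 CPM; in both, BcorWT replicate 2 was the highest library. Lsm11, which takes part in the U7 particle that processes histone mRNA, was at 8.32 and 6.68 CPM against 12.6 and 14.7 CPM, with a log2 fold change of -0.86 and an SE of 0.42. Lsm5 was at 25.9 and 43.9 CPM in BcorΔE9-10 and at 44.4 and 11.5 CPM in BcorWT, and the BcorWT libraries enclosed both BcorΔE9-10 libraries. The 7 remaining Lsm genes lay between -0.24 (Lsm10) and 0.16 (Lsm14a).

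Among the 14 U2 snRNP and 3′ splice site genes, 7 were higher and 7 lower, with a median of 0.01. That median was -0.06 and 0.06 without BcorΔE9-10 replicate 1 or 2. It was -0.05 with pseudogene counts added to their closest members and 0.06 with the GC correction. U2af1l4, a paralogue of the small U2AF subunit (chr7:30563301-30565365, plus strand), had 67 and 72 counts in BcorΔE9-10 and 74 and 144 in BcorWT, or 12.4, 11.7, 21.6 and 27.1 CPM. The BcorΔE9-10 libraries nearly coincided and both lay below the BcorWT libraries. The log2 fold change was -1.02 with an SE of 0.36 and an unadjusted edgeR p of 0.0231 (adjusted p 0.945). The gene overlaps Psenen at its 5′ end on the opposite strand and Gm49396, which has no row in the table, on its own strand up to its 3′ end; the strand setting of the count is not given in the sources used here, so that its own reads are uncertain.

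The remaining U2 factors stayed closer together. U2af1, which reads the AG of the 3′ splice site and is a mutation target in myeloid neoplasms, was at 310 and 284 CPM against 328 and 232 CPM, with a log2 fold change of 0.08 and an SE of 0.33. Its processed copy Gm10232, 99.7% identical over 720 bases, ranged from 11 to 670 counts, and with those counts added the value for U2af1 was -0.10. Sf3b1, the branch point factor most often mutated in such disease, was at 246 and 258 CPM against 264 and 220 CPM (log2 fold change 0.06, SE 0.31). The BcorWT libraries enclosed the BcorΔE9-10 libraries for both genes. Over the 9 SF3A and SF3B genes the median was -0.01, and Sf3a3 was the highest of the 14 at 0.26 (SE 0.32). U2af2, the large U2AF subunit, was at 179 and 167 CPM against 173 and 334 CPM, and Sf3a1 at 90.2 and 75.8 CPM against 90.5 and 148 CPM, so that for both BcorΔE9-10 resembled BcorWT replicate 1. Snrpa1, a U2 protein, had nearly equal BcorWT libraries (39.1 and 37.8 CPM), while its BcorΔE9-10 libraries were further apart (47.7 and 36.7 CPM). The 7 remaining genes lay between -0.35 (Sf3b5) and 0.24 (Snrpb2).

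The 10 Sm core and U1 genes had the lowest median of the roles, -0.27, with 3 higher and 7 lower. That median was -0.06 without BcorWT replicate 2, above the -0.13 of the Lsm proteins in the same fit, and -0.13 with the GC correction described below. Groups did not overlap for Snrpd2, Snrpa and Snrpert, which were lower, and for Snrpe and Snrpc, which were higher (17.1% and 16.8% of all genes). Snrpf, an Sm ring subunit (chr10:93583029-93589706, minus strand), had the lowest value of this role, -0.78 with an SE of 0.58. Its counts were 514 and 1006 in BcorΔE9-10 and 1198 and 516 in BcorWT, or 95.0, 164, 349.9 and 97.1 CPM. Ccdc38 overlaps its 3′ end on the opposite strand. BcorWT replicate 1 alone was high; against BcorWT replicate 2 alone the log2 fold change was 0.41. Snrpe, another ring subunit, had 1040 and 1109 counts against 551 and 545, or 192, 181, 161 and 103 CPM, and its value of 0.50 (SE 0.35) was the highest of this role (0.86 and 0.21 without BcorWT replicate 1 or 2). Over the 7 ring genes the median was -0.30 with 2 higher and 5 lower, and it was -0.17 and -0.04 without BcorWT replicate 1 or 2. Snrpd1 was at 283 and 249.9 CPM against 275 and 528 CPM and Snrpb at 118 and 114 CPM against 108 and 179 CPM, each with BcorWT replicate 2 as the outlying library. Snrpd3 was among the 6 members with the most counts, at 498 and 505 CPM against 607 and 491 CPM, a log2 fold change of -0.13. Snrpert was at 3.70 and 2.93 CPM against 4.38 and 4.33 CPM, with an SE of 0.60 on its log2 fold change of -0.39. The 4 remaining genes lay between -0.30 (Snrpd2) and 0.30 (Snrpc).

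Most SR proteins had values above 0. Of the 10 genes 9 were higher and 1 lower, with a median of 0.11, and 4 were higher without overlap (Srsf3, Srsf7, Srsf10 and Srsf11; 16.8% of all genes were), but none passed the unadjusted test. The median was 0.31 without BcorWT replicate 1, 0.09 without BcorWT replicate 2 and 0.01 with the GC correction. Srsf10, which represses splicing after heat shock (chr4:135855747-135869908, plus strand), had 531 and 607 counts in BcorΔE9-10 and 308 and 229 in BcorWT, or 98.1, 98.9, 89.9 and 43.1 CPM. BcorWT replicate 1 was close to both BcorΔE9-10 libraries and BcorWT replicate 2 was far lower. The log2 fold change was 0.57 with an SE of 0.40. Srsf7 was at 225 and 291 CPM against 197 and 164 CPM (0.51, SE 0.33), and Srsf3 at 431 and 395 CPM against 308 and 353 CPM (0.32, SE 0.32). Srsf2, the member of this role mutated in myeloid neoplasms, was nearly level at 405 and 380.3 CPM against 381 and 339 CPM (0.13, SE 0.31). Srsf5 was the 1 lower gene, at 452 and 525 CPM against 447 and 563 CPM, a log2 fold change of -0.05 with an SE of 0.33. The 5 remaining SR genes lay between 0.03 (Srsf4) and 0.39 (Srsf11).

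The 20 hnRNP genes held the members with the most counts. Of these, 15 were higher and 5 lower, with a median of 0.12 that was 0.27 without BcorWT replicate 1, 0.02 without BcorWT replicate 2 and -0.05 with the GC correction. Hnrnpa3, Hnrnpll and Hnrnpr were higher and Hnrnpd and Hnrnpk lower without overlap (16.8% and 17.1% of all genes). Hnrnpf, which binds G-rich RNA, was at 741 and 858 CPM against 856 and 723 CPM, a log2 fold change of 0.02 (SE 0.33). Hnrnpk, a poly-C binding protein, was at 727 and 718 CPM against 795 and 749 CPM. Although its groups did not overlap, the log2 fold change was only -0.10 (SE 0.32), and it was -0.37 with the GC correction. Hnrnpa2b1 was at 559 and 866 CPM against 714 and 538 CPM and Hnrnpm at 576 and 522 CPM against 574 and 391 CPM, both with a value of 0.19. BcorWT replicate 2 was the lowest library for Hnrnpf, Hnrnpa2b1 and Hnrnpm, and BcorΔE9-10 replicate 2 for Hnrnpk.

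At the ends of the hnRNP range stood Hnrnpr and Hnrnpd. Hnrnpr (chr4:136310942-136359447, plus strand) had 478 and 496 counts against 272 and 189, or 88.3, 80.9, 79.4 and 35.6 CPM, and a log2 fold change of 0.56 with an SE of 0.42. As for Srsf10, only BcorWT replicate 2 was clearly lower. Hnrnpd, known as AUF1, a factor in the turnover of AU-rich mRNA, was at 136 and 166 CPM against 184 and 194 CPM, a log2 fold change of -0.33 with an SE of 0.31. Hnrnpl, a regulator of signal-dependent exons, differed widely between the BcorWT libraries (285 and 126 CPM) with BcorΔE9-10 at 232 and 219.9 CPM between them. Hnrnpab, in contrast, had close BcorWT libraries (437 and 452 CPM) between more distant BcorΔE9-10 libraries (493 and 417 CPM). The 12 remaining hnRNP genes lay between -0.25 (Hnrnpul2) and 0.42 (Hnrnph1).

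The 13 Prpf genes split into 7 higher and 6 lower, with a median of 0.08 that was 0.40 without BcorWT replicate 1, -0.05 without BcorWT replicate 2 and -0.07 with the GC correction. Prpf38a, a B complex protein (chr4:108563172-108579336, minus strand), had 139 and 196 counts in BcorΔE9-10 and 80 and 77 in BcorWT, or 25.7, 32.0, 23.4 and 14.5 CPM. Both BcorΔE9-10 libraries lay above both BcorWT libraries, by little over BcorWT replicate 1, and the log2 fold change was 0.62 with an SE of 0.37 (0.99 and 0.30 without BcorWT replicate 1 or 2). Prpf6, a tri-snRNP bridge, was likewise higher without overlap, at 53.8 and 42.9 CPM against 37.7 and 34.2 CPM. Prpf40b, a U1-associated protein, had the lowest value, -0.93 with an SE of 0.64, on 14 and 24 counts against 13 and 45; it was -1.37 without BcorWT replicate 1, -0.22 without BcorWT replicate 2 and -0.54 with the GC correction. Its BcorΔE9-10 and BcorWT libraries overlapped. Prpf8, the core of the catalytic centre, was at 72.8 and 89.2 CPM against 68.3 and 119.9 CPM, a log2 fold change of -0.22 with an SE of 0.37. Prpf31 and Prpf19 were lower without overlap, by small margins, at -0.36 and -0.23. Of all genes, 16.8% were higher and 17.1% lower without overlap, against 15.4% and 15.4% of the Prpf genes. The 7 remaining genes lay between -0.07 (Prpf3) and 0.49 (Prpf4).

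Over the members together, the BcorWT libraries differed from each other more than the BcorΔE9-10 libraries did; of the 6 roles, Lsm proteins were the exception, with medians of 0.32 for BcorWT and 0.35 for BcorΔE9-10. The median absolute log2 difference within a pair was 0.38 for BcorWT and 0.20 for BcorΔE9-10 over the members, and 0.57 and 0.31 over all genes. The BcorWT pair was the wider one for 57 of the 80 members (71.2%, against 67.6% of all genes). BcorWT replicate 2 was the lowest library for 40 members and the highest for 24, that is an extreme for 80.0% of members against 70.5% of all genes. It was the lowest library for 8 of 10 SR, 11 of 20 hnRNP and 8 of 13 Prpf genes, whichever way these pointed, and for 4351 of the 12067 genes in the table.

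**Figure D3:**
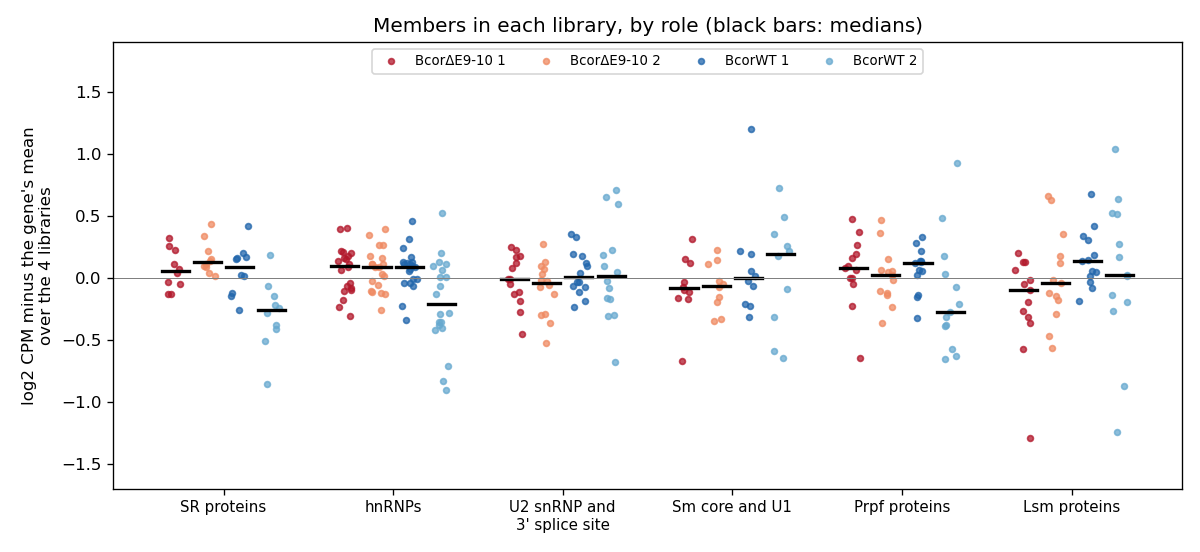
Each member's log2 CPM minus its mean over the 4 libraries (y axis), by role (x axis) and library (colour), with medians as black bars. The BcorWT replicate 2 medians lie lowest for SR proteins, hnRNPs and Prpf proteins and highest for Sm core and U1 genes.

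The fold changes therefore depended on which BcorWT library served as the control. Against BcorWT replicate 1 the median log2 difference of the members was -0.02 for BcorΔE9-10 replicate 1 and -0.04 for replicate 2, with 37 and 32 members higher. Against BcorWT replicate 2 the medians were 0.15 and 0.15, with 49 and 46 members higher. With BcorWT replicate 1 left out of the edgeR fit, 3 members had an adjusted p under 0.05 (Hnrnpr at 1.25, Srsf10 at 1.19 and Lsm7 at -1.67), against 4.94% of all genes in that fit, where the lone BcorWT library was assumed to vary like the other group. With BcorWT replicate 2 left out the same genes were at 0.09, 0.13 and -1.05 and 0 members passed. Lsm7 was thus low against either library, and Hnrnpr and Srsf10 were near 0 against BcorWT replicate 1. U2af1l4 was at -1.17 and -0.84 in these fits.

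**Figure D4:**
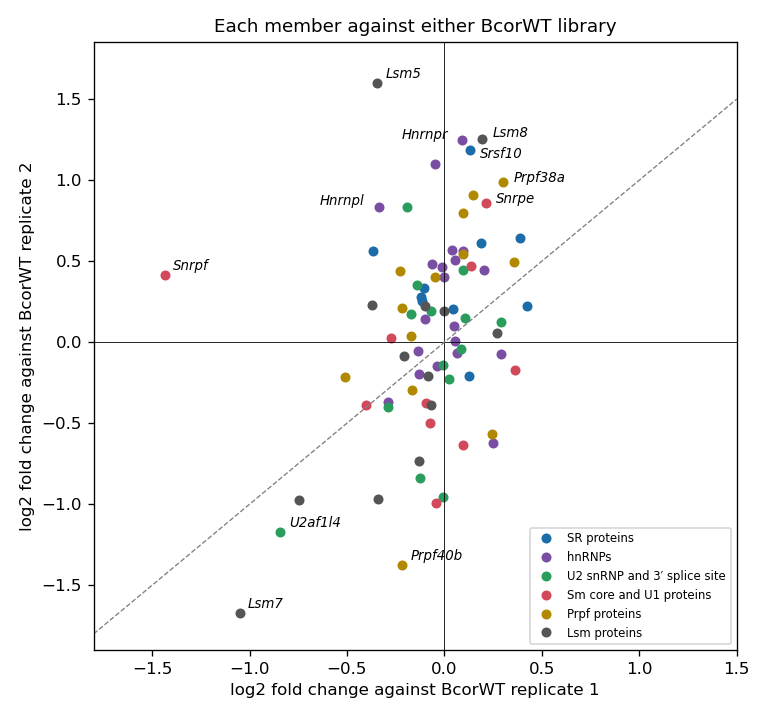
Log2 fold change of each member fitted against BcorWT replicate 1 only (x axis) and against BcorWT replicate 2 only (y axis), coloured by role, with the line of equality dashed. Lsm7 (-1.05, -1.67) and U2af1l4 (-0.84, -1.17) are low on both axes, while Snrpf (-1.43, 0.41), Lsm5 (-0.35, 1.60) and Hnrnpr (0.09, 1.25) depend on the library.

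The members' differences also varied with the base composition of their 3′ ends, where the tags lie. Over the 79 coding members, the GC content of the last 300 transcript bases had a Spearman correlation of -0.42 with the log2 fold change and of 0.52 with the difference between BcorWT replicate 2 and replicate 1, against -0.11 with the difference between the BcorΔE9-10 libraries. These correlations are across genes, which share the same 4 libraries and are not independent replicates. Over 10223 coding genes of the table they were -0.44, 0.48 and -0.15, so that the members behaved like the table as a whole. In the 26 members with the lowest GC content (26.0% to 34.7%) the median log2 fold change was 0.15 and 19 were higher, and the median difference of BcorWT replicate 2 minus replicate 1 was -0.45. In the 26 with the highest (43.3% to 63.0%) it was -0.23 and 8 were higher, and that difference was 0.23.

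Roles differ in this composition. The median GC content was 33.8% for hnRNPs, 35.0% for SR proteins and 37.0% for Prpf genes, whose medians were above 0, and 43.0% for Sm core and U1 genes and 44.3% for Lsm proteins, whose medians were below 0. The U2 genes were at 46.2% with a median near 0. Lsm7 (52.7%) and U2af1l4 (55.7%) were GC-rich and Lsm8 (26.0%) was the lowest. With each library corrected for a smooth GC trend, an alternative added after the data were seen, 0 members had an adjusted p under 0.05, the members' median was -0.04, and Lsm7 was at -1.08, U2af1l4 at -0.65 and Lsm8 at 0.36. The part of GC content and of BcorWT replicate 2 in the role medians cannot be told apart, as they move together.

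**Figure D5:**
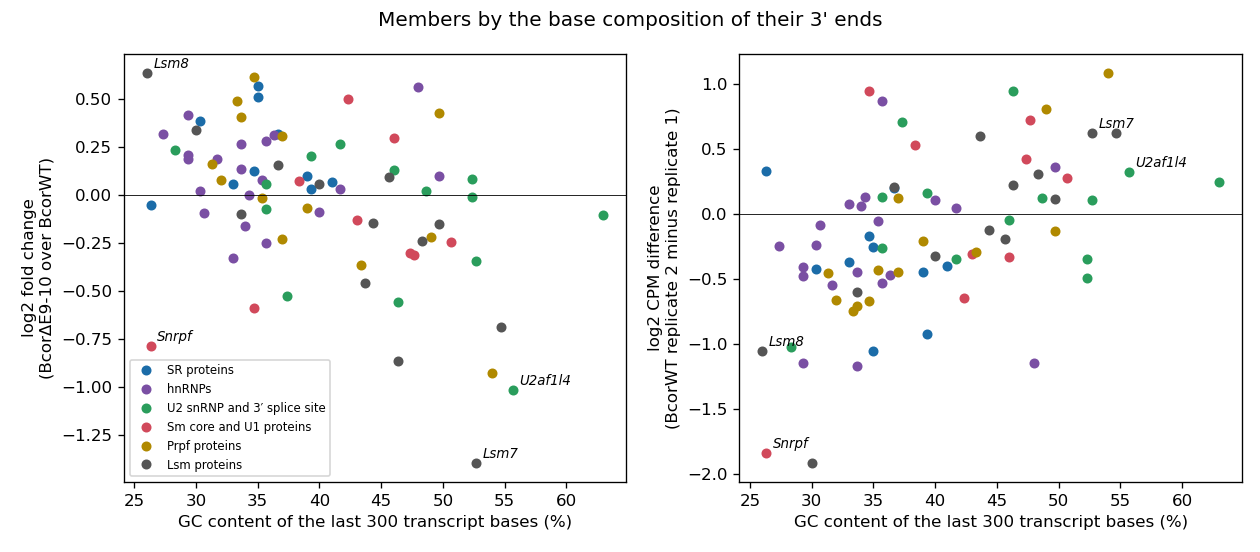
GC content of the last 300 transcript bases of the 79 coding members (x axis) against the log2 fold change (left) and against the log2 CPM difference between the BcorWT libraries (right), coloured by role. Members with low GC content lie higher on the left and lower on the right, with Spearman correlations of -0.42 and 0.52.

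Copies of the members other than Gm10146 took at most 35.2% of the sum with their member in any library. In all, 29 pseudogenes in the table were closest to 1 of 20 members, with identities from 91.0% to 100%, and 16 of the 29 were higher in BcorΔE9-10. Of these, 2 had an unadjusted edgeR p under 0.05, both higher (1.34% of all genes were): Gm12697, closest to Snrpb2, with 42 and 22 counts against 4 and 9, and Gm9134, closest to Srsf10, with 16 and 18 counts against 3 and 2. Adding the counts of each copy to its closest member moved the log2 fold change of members other than Lsm7 by at most 0.19. Besides pseudogenes, 18 members overlap another gene of the table, and for 8 the overlap lies within 300 bases of the 3′ end (Hnrnpab, Hnrnph3, Hnrnpu, Prpf39, Snrpert, Snrpf, Srsf2 and Srsf4), so that their counts are uncertain to that extent.

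Splicing genes outside the symbol rule gave a similar picture. Of 132 in the table, in 5 lists, 73 were higher and 59 lower, with a median of 0.08. That median was 0.21 and 0.01 without BcorWT replicate 1 or 2. It was 0.03 without BcorΔE9-10 replicate 2 and 0.01 with the GC correction. Of the 132, 0 had an adjusted p under 0.05. At an unadjusted p under 0.05 there were 1 higher and 1 lower, against 1.34% and 3.07% of all genes. The higher one was Smndc1, also called SPF30, a U2-associated Tudor protein, with 415 and 610 counts against 177 and 244, or 76.7, 99.4, 51.7 and 45.9 CPM (log2 fold change 0.85, SE 0.32, edgeR unadjusted p 0.0290). Both BcorΔE9-10 libraries were above both BcorWT libraries. The edgeR p of Smndc1 was 0.0520 with the replicate block (log2 fold change 0.84) and 0.0785 with the GC correction (0.55), and 0.0916 or 0.282 without BcorΔE9-10 replicate 1 or 2 (1.03 and 0.66). The lower one was Coprs, a partner of the enzyme Prmt5, placed here in the list of Sm ring assembly. Coprs had 48 and 40 counts against 60 and 73, or 8.87, 6.52, 17.5 and 13.7 CPM (log2 fold change -1.02, SE 0.43, edgeR unadjusted p 0.0447). The groups did not overlap for Coprs either. Its p was 0.0676 with the replicate block in edgeR and 0.0763 with DESeq2, where the log2 fold changes were -1.03 and -1.02, and 0.0274 with the GC correction (-1.01). In edgeR it was 0.112 and 0.285 without BcorΔE9-10 replicate 1 or 2 (-1.25 and -0.81) and 0.0917 without BcorWT replicate 1 (-0.84). By list, the median was 0.04 for the 58 other spliceosome proteins, 0.22 for the 37 other splicing regulators (27 higher, 10 lower), 0.09 for the 7 SR protein kinases, -0.25 for the 17 genes of Sm ring assembly (4 higher, 13 lower) and -0.03 for the 13 exon junction genes. Against BcorWT replicate 1 alone the regulators' median was -0.01 and against replicate 2 alone it was 0.51, the same dependence as in the members. For Sm ring assembly these values were -0.16 and -0.13. The exon junction median was -0.12 and 0.06 without BcorΔE9-10 replicate 1 or 2, and 0.08 without BcorWT replicate 1. Other spliceosome proteins were at -0.0013 without BcorΔE9-10 replicate 2 and at 0.10 without BcorWT replicate 1. SR protein kinases were at 0.15 without BcorWT replicate 2.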

How the data were processed

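Libraries were made by the authors with the QuantSeq 3′ mRNA kit (Lexogen), sequenced single-end, filtered on quality and trimmed with cutadapt (version 1.7 per the submitters' processing notes, with a different version in the study's methods). Reads were mapped to mm10 with HISAT2 and counted per gene with featureCounts of Subread. The deposited table holds these raw counts; in the columns of BcorΔE9-10 replicate 2 and BcorWT replicate 1 they were handled as estimated counts and rounded, since the deposited values of 1 gene, Gm4430, are not whole. Strand setting, annotation and how reads with several matches were treated are not given in the sources used here. No row lacks a gene name, and 0 sample columns were left unused.

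Counts were fitted in R 4.3.3 with edgeR 4.0.16 (filterByExpr, TMM, glmQLFit and glmQLFTest, genotype as the only factor, prior count 0.125, Benjamini-Hochberg adjustment over all 12067 genes); the SE is the log2 fold change divided by the square root of F. The test was first tried on simulated data. CPM were scaled by TMM factors (0.895 to 1.07), and log2 CPM used a prior count of 2. Alternatives used limma-voom (limma 3.58.1), DESeq2 1.42.0, its size factors, an unfiltered table, a minimum of 10 counts per library, a prior count of 2, the replicate number as a block, each library left out, and Gm42418 left out; summed pseudogenes and the GC correction (lowess, span 0.3) were chosen after seeing the data. Positions and transcripts came from GENCODE M21 (GRCm38) and pseudogenes were aligned with blastn 2.17.0. Python 3.11.15, pandas 2.3.3 and matplotlib 3.10.9 were used.

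The members and all gene lists were chosen with earlier results of these data known. Named genes were members with an unadjusted p under 0.05, the highest and lowest fold change in each role, the 6 members with the highest CPM, 4 genes mutated in myeloid neoplasms, up to 10 pathway genes with an unadjusted p under 0.05, and the 3 members with the largest and the 3 with the smallest BcorWT difference. Genes were ranked by CPM only to pick those members, and as counts, not transcript levels.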

Additional observations from a re-analysis of the deposited data

How the results depend on the processing

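The count of members with an adjusted p under 0.05 stayed at 0 with DESeq2 size factors, an unfiltered table, a minimum of 10 counts per library, limma-voom, DESeq2, Gm42418 left out, summed pseudogenes and the GC correction, and went from 0 to 3 over the fits that leave out 1 library, the 3 arising without BcorWT replicate 1. At an unadjusted p under 0.05 the count went from 0 to 20 over those fits (0 and 1 without BcorΔE9-10 replicate 1 or 2, 20 without BcorWT replicate 1, where 25.0% of all genes passed). The members' median log2 fold change went from -0.046 to 0.16. The cause was not tested. For libraries sharing a replicate number, shifts away from the genotype mean had a correlation of -0.094 across genes. With 2 libraries a genotype, that value rests on a single difference within each genotype. It therefore cannot decide whether the numbers pair the libraries. With the replicate block 0 members had an adjusted p under 0.05, 2 had an unadjusted p under 0.05 and the median was 0.07. With the GC correction the 2 members at an unadjusted p under 0.05 were Lsm7 and Snrpf, not U2af1l4.

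Some named members changed sign. With the GC correction this held for Hnrnpa2b1 (-0.10), Hnrnpab (-0.0085), Hnrnpf (-0.26), Hnrnpl (-0.010), Hnrnpm (-0.030), Sf3b1 (-0.11) and Srsf2 (-0.070), and with summed pseudogenes for U2af1 (-0.10). With each library left out in turn, the log2 fold change ranged from -0.16 to 0.47 for Hnrnpa2b1, from -0.093 to 0.15 for Hnrnpab, from -0.10 to 0.14 for Hnrnpf, from -0.33 to 0.84 for Hnrnpl, from -0.063 to 0.49 for Hnrnpm, from -0.35 to 1.60 for Lsm5, from -0.57 to 0.24 for Prpf8, from -0.068 to 0.19 for Sf3b1, from -0.069 to 0.31 for Snrpa1, from -0.28 to 0.027 for Snrpd3, from -1.43 to 0.41 for Snrpf, from -0.21 to 0.13 for Srsf5 and from -0.14 to 0.35 for U2af1. Lsm7 and U2af1l4 kept their sign in those fits (-2.06 to -0.94 and -1.17 to -0.84). Their adjusted p ran from 0.0479 to 0.999 and from 0.0749 to 1 over all alternatives. With 2 libraries a group, SEs of a log2 fold change were at least 0.30 for any member, and members as far from 0 as Lsm8 at 0.63 and Prpf40b at -0.93 did not pass even the unadjusted test.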
